A study of Mus musculus with 4 samples.

Results

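Spermatogonial regulators were followed across mouse testis development through 10 genes that were listed by name and found as entries of the deposited tables. Of these, 6 were listed as markers of undifferentiated spermatogonia (ZBTB16, GFRA1, RET, ETV5, ID4 and SALL4) and 4 as markers of differentiating spermatogonia (KIT, SOHLH1, SOHLH2 and DMRTB1). All 10 were present among 112302 entries, and 7 of them reached 1 RPKM (reads scaled to gene model length and library size) in at least 1 library, as did 42964 entries in all. ZBTB16, RET and SALL4 stayed below that level in every library. RNA came from testis of BALB/C mice at embryonic days 14 (E14) and 18 (E18) and at postnatal ages of 3 weeks and 6 months, with no treatment, mutation or transgene named in the labels. The RNA was a commercial product, and the labels used here do not give the number of animals behind it. The labels differ on RNA selection, since some fields name ribosomal RNA depletion alone and others also polyadenylated RNA. Each stage is 1 library, so no difference below has a replicate check and no p-value is given.

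Spermatogonia are the mitotic germ cells at the base of the seminiferous tubule. They descend from fetal germ cells (gonocytes), and a small undifferentiated fraction, which contains the stem cells, renews itself under glial cell line-derived neurotrophic factor (GDNF) from Sertoli and peritubular cells. GDNF binds the co-receptor GFRA1 and signals through the receptor tyrosine kinase RET, which raises transcription factors such as ETV5 and ID4. In response to retinoic acid, undifferentiated cells start to express the receptor KIT and the helix-loop-helix factors SOHLH1 and SOHLH2 act in this transition, while DMRTB1 (also called DMRT6) acts late in it, before meiosis.

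In the GENCODE vM21 annotation on GRCm38, the genes of the 4 differentiating members lie at chr5:75574916-75656722 (KIT, plus strand), chr2:25842995-25847248 (SOHLH1, minus strand), chr3:55182028-55209957 (SOHLH2, plus strand) and chr4:107676290-107684230 (DMRTB1, minus strand). Those of the undifferentiated members lie at chr9:48654297-48836222 (ZBTB16), chr19:58235604-58455909 (GFRA1), chr6:118151745-118197718 (RET), chr16:22381309-22439719 (ETV5) and chr2:168748332-168767943 (SALL4), all on the minus strand, and at chr13:48261228-48266026 on the plus strand (ID4). RPKM counts reads over a gene model of exons. GFRA1, SALL4 and ID4 have antisense neighbours, and since the use of strand in the counting is not given in the sources used here, their reads may include those of Gm16277 (GFRA1), Gm14261 (SALL4), and A330033J07Rik and Gm49291 (ID4).

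The 4 libraries rested on 33952471 to 38903334 reads in the RPKM denominator, so that 3 reads in a 1 kb gene model correspond to between 0.0771 and 0.0884 RPKM. The E14 library stood apart from its label. The 8 general germ cell markers summed to 1.38 RPKM at E14 and 19.1 at E18, 452 at 3 weeks and 330.3 at 6 months, and 0 of them reached 1 RPKM at E14. Sertoli cell markers summed to 10.4, 93.9, 154 and 143 RPKM in the same order, with FSHR and RHOX8 at 0 at E14, and Leydig cell markers to 8.12, 138, 65.3 and 561 RPKM. XIST, which coats the inactive X in female cells, had 12.7 RPKM at E14, against 0.124, 0.158 and 0.0312 RPKM at the later stages, and Y-linked DDX3Y had 1.47, 4.70, 3.46 and 0.923 RPKM. Every value of the E18 against E14 comparison rests on that library. The comparisons of later stages use it only through the filter on low values. With E14 left out of that filter, a choice made after seeing the data, 6 members passed instead of 7 (GFRA1 dropped out). The members called stayed the same, but a call needs at least 1 RPKM in the library where the gene is higher. Calls between later stages, and higher calls at E18 against E14, therefore could not have changed. The check says nothing about the E14 library.

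The 4 differentiating members summed to a far higher level after birth, mostly through DMRTB1. The sum of the 6 undifferentiated members was highest at 3 weeks and lowest at E18 (at 6 months under protein-coding scaling). The undifferentiated members summed to 11.9 RPKM at E14, 8.51 at E18, then 17.6 at 3 weeks and 10.5 at 6 months. The differentiating members summed to 2.16, 3.98, 67.1 and 118 RPKM. As a share of the members' total within each library, which does not depend on how libraries are scaled to each other, the undifferentiated members made up 84.7% at E14 and 68.2% at E18, 20.8% in the 3-week library and 8.17% in the 6-month library. Approximate 95% intervals of these shares, from the Poisson error of each member's reads, were 83.2% to 86.1%, 65.2% to 71.0%, 19.7% to 21.8% and 7.64% to 8.74%. Intervals here and below cover counting error only, because PCR copies of a molecule are counted as separate reads.

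A single gene, DMRTB1, carried the postnatal part of this shift. It made up 1.49% of the members' total at E14, 1.57% at E18, then 71.4% at 3 weeks and 88.7% at 6 months. Without DMRTB1 the undifferentiated share was 86.0% at E14 and 69.2% at E18, 72.7% at 3 weeks and 72.6% at 6 months, so the postnatal libraries no longer lay below the E18 library. The undifferentiated sum itself was mostly ID4 and ETV5, and ETV5 is also made by Sertoli cells. Without ID4 and ETV5 the share was 55.0%, 34.8%, 3.09% and 0.862% in stage order. In these whole-tissue libraries, fewer cells of a type and less RNA per cell cannot be told apart.

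**Figure D1:**
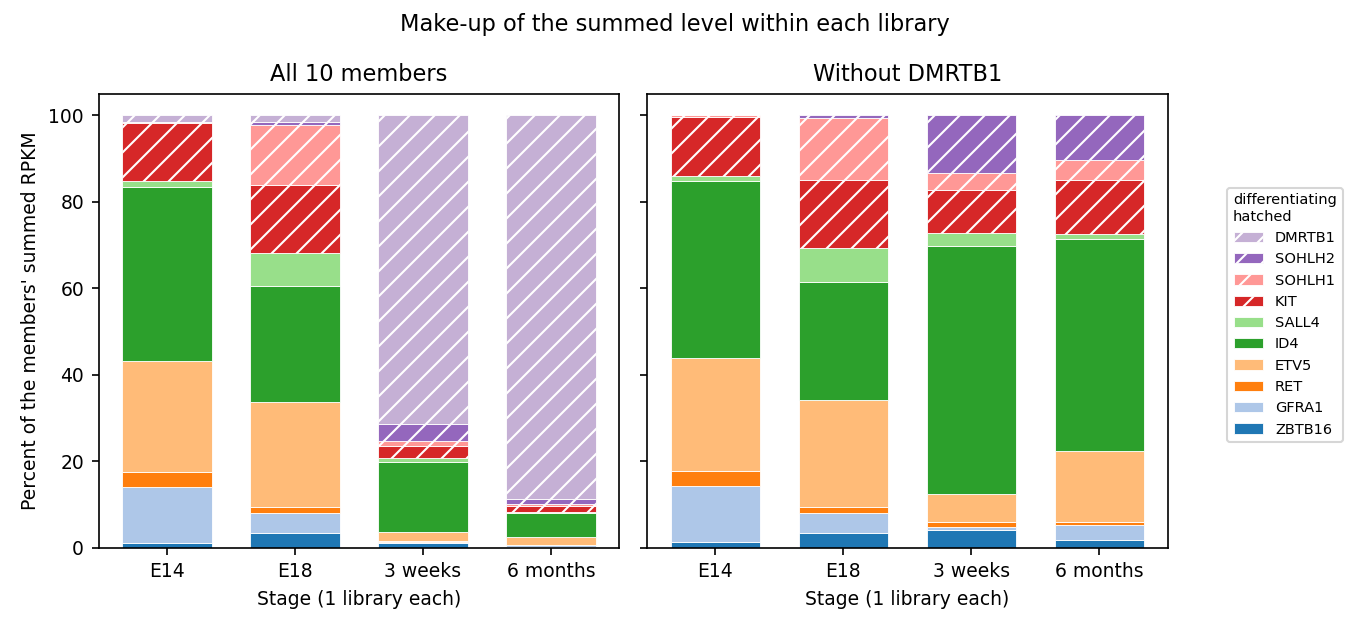
Percent of the summed RPKM of the members contributed by each gene (vertical axis) at each stage (horizontal axis, 1 library each), for all 10 members on the left and without DMRTB1 on the right, with differentiating members hatched. DMRTB1 fills 71.4% of the bar at 3 weeks and 88.7% at 6 months, and without it the solid, undifferentiated part is 72.7% and 72.6% at those stages.

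The GDNF receptor components were highest in the E14 library, except for RET under ribosomal protein scaling, where 3 weeks was highest. GFRA1, the membrane-anchored co-receptor on mouse chromosome 19, had 1.80 RPKM at E14, 0.568 at E18, then 0.171 at 3 weeks and 0.518 at 6 months, from 385, 107, 32 and 102 reads. Its level at E18 and at 6 months differed by less than counting error (ratio of 6 months to E18 of 0.911, 0.688 to 1.21), and the 3-week library was the lowest. RET, the signalling receptor on chromosome 6, had 0.497, 0.175, 0.257 and 0.0951 RPKM, with the lowest level at 6 months (at E18 under ribosomal protein scaling) and no separation between E18 and 3 weeks beyond counting error (ratio of 3 weeks to E18 of 1.47, 0.984 to 2.20).

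The balance of the receptor pair also differed by stage. Within a library, GFRA1 stood at 3.62 times the RPKM of RET at E14 (2.98 to 4.42), 3.25 times at E18 (2.27 to 4.72), 0.667 times at 3 weeks (0.422 to 1.04) and 5.45 times at 6 months (3.49 to 8.81). The 3-week library was thus the only library of the 4 in which the interval of this ratio included 1. GDNF, the ligand, followed neither receptor component, with 0.806 RPKM at E14 and 2.60 at E18, 0.336 at 3 weeks and 0.159 at 6 months. The ratio of GDNF to GFRA1 was 0.448 at E14 (0.359 to 0.555), 4.57 at E18 (3.66 to 5.75), 1.96 at 3 weeks (1.1999 to 3.22) and 0.307 at 6 months (0.180 to 0.4997). Ligand RNA per length exceeded co-receptor RNA at E18 and 3 weeks and lay below it at E14 and 6 months.

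Other cells that use these receptors were followed through their markers. Of 7 markers of autonomic and enteric neurons and their glia, in which RET and GFRA1 also act, 4 reached 1 RPKM at E14 (HAND2, SOX10, ELAVL4 and DBH) and 0 did at any later stage. Their sum was 8.30 RPKM at E14, 2.44 at E18, then 0.622 at 3 weeks and 0.987 at 6 months. The kidney is another site of RET signalling, though not every marker listed for it marks cells that use RET. Of 9 ureteric bud and kidney markers, 5 reached 1 RPKM at E14 and 6 at E18, 1 at 3 weeks and 1 at 6 months. Their sum was 11.4, 51.3, 8.62 and 8.24 RPKM, of which CITED1 gave 6.39 and 7.25 RPKM at the postnatal stages, and SLC34A1 and WNT9B were listed at 0 at 3 weeks. The part of these cells in the GFRA1 and RET values was not tested.

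ETV5, an ETS-domain factor induced by GDNF, had 3.61 RPKM at E14, 3.04 at E18, then 1.58 at 3 weeks and 2.37 at 6 months. Levels next to each other in rank differed by more than counting error, but the order depended on scaling. Rescaling to ribosomal protein genes put 6 months highest and 3 weeks above E18, and the median of ratios made E18 and 6 months level. ID4, an inhibitor of helix-loop-helix factors that marks the most primitive spermatogonia, had 5.68, 3.34, 13.9 and 7.07 RPKM. It was the highest of the 6 undifferentiated members in every library, though not beyond counting error over ETV5 at E18, and its own highest level was at 3 weeks. The ratio of ID4 to ETV5 was 1.57 at E14 (1.38 to 1.80), 1.10 at E18 (0.922 to 1.31), 8.77 at 3 weeks (7.55 to 10.2) and 2.98 at 6 months (2.58 to 3.45). Of 10 Sertoli cell markers, 3 reached 1 RPKM at E14, 8 did at E18, 9 at 3 weeks and 8 at 6 months, and the part of Sertoli cells in the ETV5 level was not tested.

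ID4 went against its paralogs between E18 and 3 weeks. ID1, ID2 and ID3, which are widely expressed targets of bone morphogenetic protein signalling, summed to 32.0 RPKM at E14 and 35.9 at E18, 6.62 at 3 weeks and 1.92 at 6 months. All 3 were called lower at 3 weeks than at E18, with log2(RPKM + 1) differences of -2.55 for ID1, -1.40 for ID2 and -2.60 for ID3, while ID4 was called higher with a difference of 1.77. Of all entries, 10.5% were called lower and 32.0% higher in that comparison. At 6 months against 3 weeks all 4 ID genes were lower, with ratios of 0.510 for ID4, 0.362 for ID1, 0.243 for ID2 and 0.441 for ID3. ID4 made up 15.1% of the summed RPKM of the 4 ID genes at E14, 8.51% at E18, then 67.7% at 3 weeks and 78.7% at 6 months. Within a library, ID4 stood at 0.246 times ID2 at E18 (0.208 to 0.291) and at 6.44 times ID2 at 6 months (4.79 to 8.81).

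ZBTB16 and SALL4, the zinc finger factors of the group, were low at both ends of the series. ZBTB16 (also called PLZF), which maintains the stem cell pool, had 0.174 RPKM at E14 and 0.425 at E18, 0.994 at 3 weeks and 0.251 at 6 months, from 39, 84, 195 and 52 reads. Its highest level, at 3 weeks, was 2.34 times that at E18 (1.80 to 3.06), and its levels at 6 months and E14 differed by less than counting error. SALL4, which acts in gonocytes and in both spermatogonial states, had 0.167, 0.955, 0.718 and 0.156 RPKM, with its highest level at E18 except under ribosomal protein scaling, where it was higher at 3 weeks. The ratio of ZBTB16 to SALL4 was 0.445 at E18 (0.339 to 0.579), 1.38 at 3 weeks (1.11 to 1.74) and 1.61 at 6 months (1.01 to 2.60), so SALL4 led before birth at E18 and ZBTB16 led after it. At E14 the ratio was 1.04 (0.643 to 1.68).

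**Figure D2:**
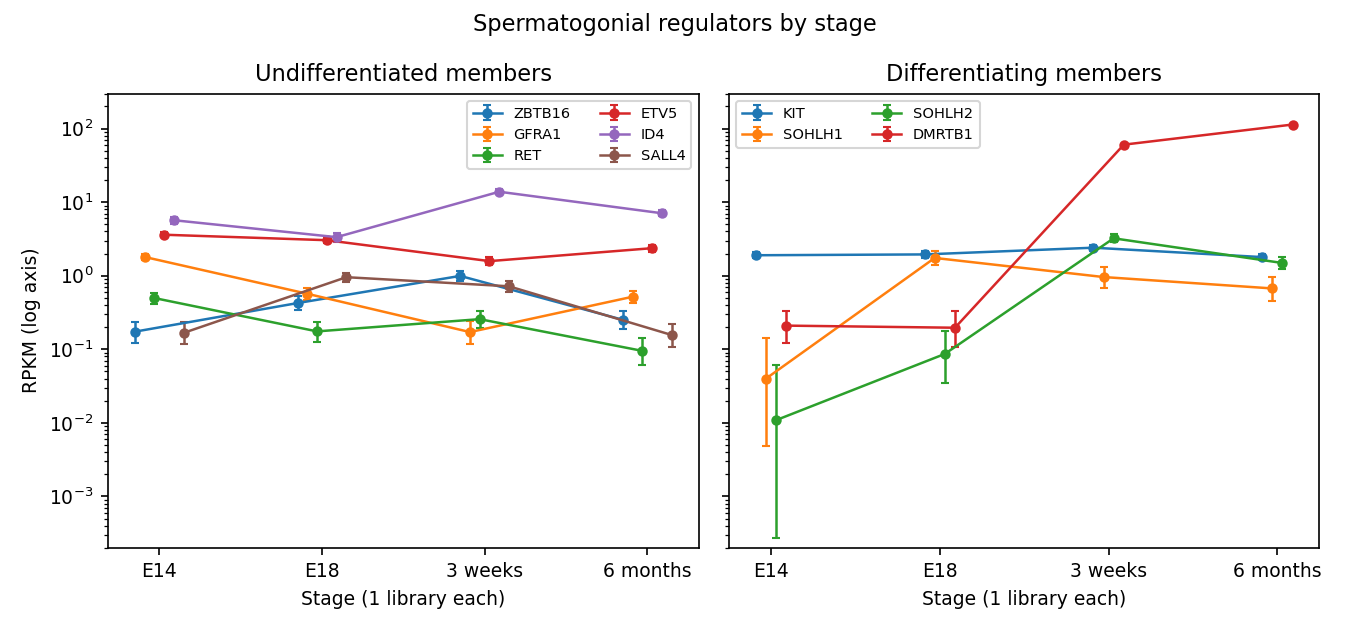
RPKM of each member on a log axis (vertical) at each stage (horizontal, 1 library each), with undifferentiated members on the left, differentiating members on the right, and bars for exact 95% Poisson intervals of counting error. ID4 is the highest undifferentiated member at every stage, and DMRTB1 stands at 0.210 RPKM at E14, 0.196 at E18, then 60.5 at 3 weeks and 114 at 6 months.

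KIT, the receptor tyrosine kinase that marks the step to differentiation, was the steadiest member, except under ribosomal protein scaling, where ETV5 was. It had 1.90 RPKM at E14 and 1.95 at E18, 2.40 at 3 weeks and 1.79 at 6 months, from 403 to 513 reads. The 3-week library was the highest, at 1.23 times the E18 level (1.08 to 1.41), a direction that turned under the median of ratios and under protein-coding scaling. Under ribosomal protein scaling KIT was instead called higher at 3 weeks than at E18, with a log2 difference of 1.05. The other 3 libraries differed from their neighbours in rank by less than counting error. Its ligand KITL, made by Sertoli cells and other supporting cells, had 2.77, 4.68, 5.60 and 1.64 RPKM. KITL stood at 1.46 times KIT at E14 (1.29 to 1.65), 2.40 times at E18 (2.14 to 2.70), 2.33 times at 3 weeks (2.10 to 2.59) and 0.915 times at 6 months (0.790 to 1.06).

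KIT is also expressed by Leydig cells, mast cells and melanocytes. Of 6 mast cell markers, 3 reached 1 RPKM at E14, 4 at E18, then 1 at 3 weeks and 1 at 6 months, and their sum was 8.17, 8.01, 1.76 and 1.75 RPKM. The mast cell receptor chain MS4A2 and the protease MCPT4 were listed at 0 in both postnatal libraries, where HDC, a histamine-forming enzyme, gave most of the sum (1.66 and 1.52 RPKM). Of 5 melanocyte markers, PMEL reached 1 RPKM, at 3 weeks and 6 months, and TYR was listed at 0 from E18 on. Leydig cell markers are given above. The part of these cells in the KIT level was not tested.

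The partner factors SOHLH1 and SOHLH2, which bind DNA as a heterodimer at E-box motifs, were high at different stages. SOHLH1 had 0.0399 RPKM at E14 and 1.75 at E18, 0.960 at 3 weeks and 0.672 at 6 months, from 2, 77, 42 and 31 reads. SOHLH2 had 0.0109, 0.0865, 3.23 and 1.49 RPKM, from 1, 7, 259 and 126 reads. SOHLH1 was thus highest in the fetal E18 library, except under ribosomal protein scaling, where 3 weeks was higher, and SOHLH2 was highest at 3 weeks. SOHLH1 stood at 20.2 times SOHLH2 at E18 (9.34 to 51.9), at 0.297 times at 3 weeks (0.209 to 0.413) and at 0.451 times at 6 months (0.294 to 0.673). At E14 the ratio of 3.67 rested on 3 reads in all (0.191 to 216) and gives no order.

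DMRTB1, a DM-domain factor, reached the highest level of the 10 members in both postnatal libraries. It had 0.210 RPKM at E14 and 0.196 at E18, from 17 and 14 reads, and 60.5 at 3 weeks and 114 at 6 months, from 4277 and 8468 reads. The fetal libraries differed by less than counting error, and both lay far below the postnatal libraries. Its rank among 18584 established protein-coding genes was 12727 at E14, 13044 at E18, then 114 at 3 weeks and 86 at 6 months. No other member came above rank 977, which ID4 held at 3 weeks. DMRTB1 stood at 0.111 times KIT at E14 (0.0638 to 0.179) and 0.101 times at E18 (0.0546 to 0.171), and at 25.2 times at 3 weeks (22.9 to 27.6) and 63.4 times at 6 months (57.4 to 70.2). Its highest level was at 6 months under every scaling run. No other member was highest at 6 months on the deposited scale, though KIT was under the median of ratios and ETV5 under ribosomal protein scaling. On the deposited scale KIT, SOHLH1 and SOHLH2 were lower at 6 months than at 3 weeks (ratios of 0.745, 0.700 and 0.461). DMRTB1 thus went against the other listed differentiating members there. For SOHLH1 the interval included 1, and KIT and SOHLH1 turned under the median of ratios. The part of spermatocytes and spermatids in the DMRTB1 level was not tested.

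Promoter sequence is given for the 4 differentiating members, because SOHLH2 and DMRTB1 shared a step between E18 and 3 weeks, SOHLH1 had its step earlier and KIT had none past 2-fold on the deposited scale. RefSeq promoters on GRCm38.p6 were matched for 7 of the 10 members, and ZBTB16, RET and SALL4 had none in the table used. Each run below is the 250 bases before an annotated transcript start, read 5′ to 3′ on the gene's strand, with capitals marking every match to the E-box CANNTG, which reads the same in form on both strands.
SOHLH1 (chr2:25847249-25847498, minus strand): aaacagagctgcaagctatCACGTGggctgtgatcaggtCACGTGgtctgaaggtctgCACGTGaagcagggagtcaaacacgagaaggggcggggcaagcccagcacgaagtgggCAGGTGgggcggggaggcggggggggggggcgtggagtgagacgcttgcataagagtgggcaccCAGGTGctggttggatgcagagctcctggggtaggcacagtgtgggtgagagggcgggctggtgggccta
SOHLH2 (chr3:55181794-55182043, plus strand): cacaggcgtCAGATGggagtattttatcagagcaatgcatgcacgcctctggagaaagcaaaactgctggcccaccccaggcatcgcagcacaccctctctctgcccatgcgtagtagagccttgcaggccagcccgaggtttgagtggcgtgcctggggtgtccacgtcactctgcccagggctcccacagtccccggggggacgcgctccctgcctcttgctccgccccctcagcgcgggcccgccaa
DMRTB1 (chr4:107684231-107684480, minus strand): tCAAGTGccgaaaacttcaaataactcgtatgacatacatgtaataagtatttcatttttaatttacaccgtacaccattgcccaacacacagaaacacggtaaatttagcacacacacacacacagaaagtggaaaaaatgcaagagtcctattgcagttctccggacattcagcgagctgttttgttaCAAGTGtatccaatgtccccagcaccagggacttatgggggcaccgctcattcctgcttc
KIT (chr5:75574737-75574986, plus strand): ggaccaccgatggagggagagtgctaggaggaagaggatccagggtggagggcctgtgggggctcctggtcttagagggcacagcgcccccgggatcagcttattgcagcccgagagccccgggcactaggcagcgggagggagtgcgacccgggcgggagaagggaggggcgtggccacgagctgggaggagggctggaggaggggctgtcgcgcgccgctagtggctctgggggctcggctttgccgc

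The SOHLH1 window held 5 E-boxes, 3 of them of the form CACGTG, which start 231, 211 and 192 bases before the transcript start, while the other two are CAGGTG. Of 32851 RefSeq promoter windows of the same length, 6.02% held CACGTG and 0.0609% (20 windows) held it at least 3 times. The SOHLH2 window held 1 E-box, the DMRTB1 window 2 and the KIT window 0, and 66.2% of all windows held at least 1. DMRTB1 has a second RefSeq start, whose window held 3 E-boxes, and KIT a second start 4 bases further on. GFRA1 had 3 E-boxes and ID4 0, and ETV5 had 2 and 0 at its pair of starts. CACGTG is one form of CANNTG, so these counts overlap. Neither ACATTGT, a core of DM-domain sites (2.56% of all windows, both strands), nor CCGGAA, a core of ETS-domain sites (12% of all windows, both strands), was found in the 4 windows shown, which says only that these letters are not there.

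In the comparison of E18 with E14, 1 of the 7 members that passed the filter was at least 2-fold higher on the log2(RPKM + 1) scale, where the added 1 understates the change of low genes. Over all entries 2.17% were higher and 1.34% lower by that limit, and among protein-coding genes 3.54% and 1.64%. The member was SOHLH1, with 1.75 RPKM at E18 and 0.0399 RPKM at E14, a log2 difference of 1.40 and a ratio of 43.8 (11.7 to 368). It passed the filter only through the E18 library, where it is high, so the count of 1 supports nothing about the members. By RPKM alone, without the added 1, 4 of 10 members were at least 2-fold higher (SOHLH1, SOHLH2, SALL4 and ZBTB16) and 2 were at least 2-fold lower (GFRA1 and RET), where 14.7% of protein-coding genes above 0 in both libraries were higher and 7.99% lower. SALL4 stood at 0.955 RPKM at E18 and 0.167 RPKM at E14, a ratio of 5.71 (3.98 to 8.42). GFRA1 stood at 0.568 RPKM at E18 and 1.80 RPKM at E14, a ratio of 0.316 (0.253 to 0.392).

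The undifferentiated members went both ways between these libraries. ZBTB16 and SALL4 were higher at E18, and GFRA1, RET, ETV5 and ID4 were lower, each with a counting interval that excluded 1. KIT and DMRTB1 had intervals that included 1, the direction of KIT turned under each rescaling except that to equal sums, and the interval of SOHLH2, from 7 reads at E18 and 1 read at E14, ran from 1.02 to 359. The median log2 difference was -0.27 over all 6 undifferentiated members and -0.62 over the 3 that passed the filter (GFRA1, ETV5 and ID4). It was 0.06 for the 4 differentiating members and 0.03 over all entries tested. In the same comparison germ cell markers summed to 19.1 RPKM at E18 and 1.38 RPKM at E14, and the part of that difference in the SOHLH1, SALL4 and ZBTB16 values was not tested.

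In the comparison of 3 weeks with E18, 3 of 7 members were called higher and 0 lower, where 32.0% of all entries were higher and 10.5% lower (24.1% and 13.2% of protein-coding genes). DMRTB1 had 60.5 RPKM at 3 weeks and 0.196 RPKM at E18, a log2 difference of 5.68 and a ratio of 308 (183 to 564). SOHLH2 had 3.23 RPKM at 3 weeks and 0.0865 RPKM at E18, a log2 difference of 1.96 and a ratio of 37.3 (17.8 to 93.7). ID4 had 13.9 RPKM at 3 weeks and 3.34 RPKM at E18, a log2 difference of 1.77 and a ratio of 4.14 (3.53 to 4.88). SOHLH2 and DMRTB1 passed the filter only through the postnatal libraries, and with 7 members tested this count stood near the background, so it is not read as a result about the members as a group.

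By RPKM alone, ZBTB16 was also at least 2-fold higher at 3 weeks (4 of 10 members, 31.1% of protein-coding genes), and GFRA1 was lower (1 of 10 members, 26.5% of protein-coding genes). GFRA1 stood at 0.171 RPKM at 3 weeks and 0.568 RPKM at E18, a ratio of 0.301 (0.196 to 0.451). ETV5 stood at 1.58 and 3.04 RPKM in the same order, a ratio of 0.519 (0.439 to 0.613), and SOHLH1 at 0.960 and 1.75 RPKM, a ratio of 0.550 (0.368 to 0.811). Rescaling the libraries to their ribosomal protein genes turned the direction of ETV5, SALL4 and SOHLH1 in this comparison, and rescaling by the median of ratios or to protein-coding genes turned that of KIT. The median log2 difference was -0.04 over all 6 undifferentiated members and -0.42 over the 3 that passed the filter. It was 1.08 for the 4 differentiating members and 0.46 over all entries tested. Spermatocyte markers summed to 428 RPKM at 3 weeks and 5.30 RPKM at E18 in the same comparison, and their part in the DMRTB1 and SOHLH2 values was not tested.

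In the comparison of 6 months with 3 weeks, 0 of 7 members were called in either direction, where 9.73% of all entries were higher and 14.1% lower (9.52% and 7.87% of protein-coding genes). DMRTB1 came closest from above, with 114 RPKM at 6 months and 60.5 RPKM at 3 weeks, a log2 difference of 0.90 and a ratio of 1.88 (1.81 to 1.95). ID4 came closest from below, with 7.07 RPKM at 6 months and 13.9 RPKM at 3 weeks, a log2 difference of -0.88 and a ratio of 0.510 (0.452 to 0.575). By RPKM alone, 1 of 10 members was at least 2-fold higher (GFRA1, 15.0% of protein-coding genes) and 4 were at least 2-fold lower (ZBTB16, RET, SALL4 and SOHLH2, 27.8% of protein-coding genes).

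GFRA1 stood at 0.518 RPKM at 6 months and 0.171 RPKM at 3 weeks, a ratio of 3.02 (2.01 to 4.65), and ETV5 at 2.37 and 1.58 RPKM, with a ratio between 1.26 and 1.78. These and DMRTB1 were the 3 members with an interval above 1. SALL4 stood at 0.156 RPKM at 6 months and 0.718 RPKM at 3 weeks, a ratio of 0.218 (0.142 to 0.324), and ZBTB16 at 0.251 and 0.994 RPKM, a ratio of 0.253 (0.183 to 0.345). Germ cell markers summed to 330.3 RPKM at 6 months and 452 RPKM at 3 weeks, and spermatid markers to 6249 and 13.2 RPKM. Rescaling by the median of ratios turned the direction of KIT and SOHLH1. The median log2 difference was -0.38 over all 6 undifferentiated members, but of the opposite sign, 0.37, over the 3 that passed the filter. It was -0.26 for the 4 differentiating members and -0.31 over all entries tested.

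**Figure D3:**
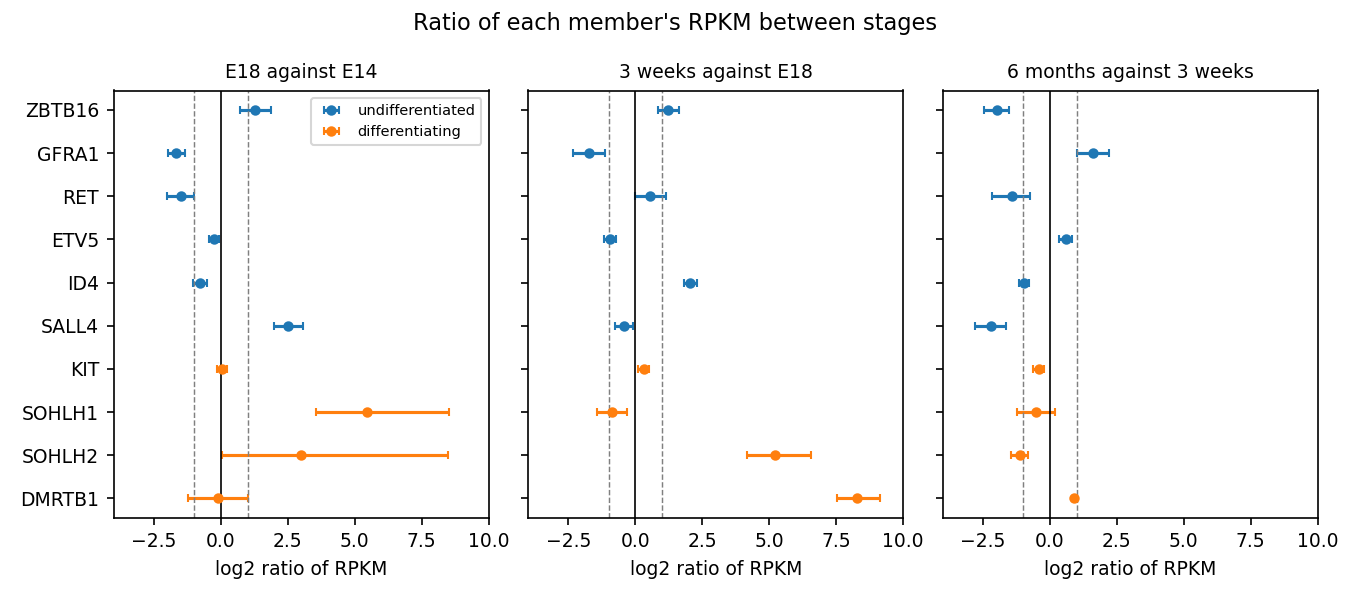
Log2 ratio of RPKM, later over earlier stage (horizontal axis), for each member (rows) in the 3 comparisons of neighbouring stages (panels), with bars for exact 95% counting intervals, a solid line at no difference and dashed lines at 2-fold. SOHLH1 stands far right at E18 against E14, SOHLH2 and DMRTB1 at 3 weeks against E18, and 4 members lie left of the lower dashed line at 6 months against 3 weeks.

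Relative to the summed RPKM of 8 listed germ cell markers, most members were lower after birth than at E18. These values depend on the markers chosen and are not levels per germ cell. The marker sum was 19.1 RPKM at E18 and 452 RPKM at 3 weeks. Any gene that rose by a smaller factor comes out lower on this scale, whatever its own direction. All 7 tested markers were called higher at 3 weeks than at E18, whereas DND1, which was not tested, had 0.879 and 0.666 RPKM. The undifferentiated members summed to 44.5 RPKM per 100 RPKM of the 8 germ cell markers at E18, 3.89 at 3 weeks and 3.17 at 6 months. The differentiating members without DMRTB1 gave 19.8, 1.46 and 1.196 on the same scale, and DMRTB1 gave 1.03, 13.4 and 34.4. SOHLH2 was the other member without a lower postnatal value on this scale at 3 weeks, with 0.452 at E18, 0.713 at 3 weeks and 0.451 at 6 months. MAEL alone gave more than any other marker of the sum, and without it the undifferentiated value was 79.5 at E18, 9.35 at 3 weeks and 12.2 at 6 months, so the order of the postnatal stages turned. At E14 the markers were too low for such a ratio.

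Other genes of the GDNF family had their own stage patterns. Of 8 further ligands and receptors, 5 reached 1 RPKM in a library. Between E18 and E14, 0 were called, where 2.17% of all entries were higher and 1.34% lower. GDNF was called lower at 3 weeks than at E18 (log2 difference -1.43), where 10.5% of all entries were lower. GFRA2, the neurturin co-receptor, was called higher at 6 months than at 3 weeks, with 2.33 and 0.275 RPKM, where 9.73% of all entries were higher. GDNF passed the filter only through E18 and GFRA2 only through 6 months, so these calls are not read as a result about the family. GFRA4, the persephin co-receptor, had 1.32 RPKM at E14 and 1.28 at E18, 2.72 at 3 weeks and 4.10 at 6 months, above GFRA1 in each library but the first. GFRA3 was highest at E14, like GFRA1 and RET, with 1.37 RPKM there and 0.293, 0.0444 and 0.0421 RPKM at the later stages.

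Fibroblast growth factor signalling, which also supports undifferentiated spermatogonia and induces ETV5, had 9 of 13 genes tested and 5 called lower at 3 weeks than at E18, where 10.5% of all entries were. PDGFRA and PDGFRB, which mark stromal cells, were lower in the same comparison, and the part of stromal cells was not tested. The 5 genes were the ligand FGF2, the receptor FGFR1 and the feedback inhibitors SPRY1, SPRY2 and DUSP6. All of these but DUSP6 passed the filter only through the fetal libraries, where they are higher. The count is therefore not read as a result about the list. SPRY2 had 0.508 RPKM at 3 weeks and 5.82 RPKM at E18, and FGFR1 had 0.510 and 3.89 RPKM. None of the 9 was called in the other comparisons. Of all entries, 2.17% were higher and 1.34% lower at E18 against E14, and 9.73% and 14.1% at 6 months against 3 weeks. The ETV5 paralogs ETV1 and ETV4 stayed below 1 RPKM throughout, with 0.899 and 0.828 RPKM at E14.

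Among 22 other genes of undifferentiated spermatogonia, 8 were tested. THY1, a surface marker also found on stroma and neurons, was called higher at E18 than at E14 and lower at 3 weeks than at E18, with 1.27 RPKM at E14, 3.72 at E18, then 0.458 at 3 weeks and 0.0644 at 6 months. At 3 weeks against E18, 1 was called higher (TAF4B, a germ cell transcription co-factor, with 5.06 and 0.925 RPKM) and 4 lower (THY1, ITGA6, TSPAN8 and LHX1). Of all entries, 32.0% were higher and 10.5% lower in that comparison. TAF4B passed the filter only through the postnatal libraries, and THY1 and LHX1 only through fetal ones. The counts are therefore not read as results about the list. TAF4B was also the gene called lower at 6 months, at 1.76 RPKM, where 14.1% of all entries were lower. The stem cell genes LIN28A, UTF1, SOX3 and NANOS2 stayed below 1 RPKM in every library, and LIN28A had the most of these at 3 weeks, with 0.752 RPKM.

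Among 10 other genes of differentiating spermatogonia and the entry into meiosis, all reached 1 RPKM in a library. At 3 weeks against E18, 5 were called higher and 2 lower, where 32.0% of all entries were higher and 10.5% lower. At 6 months against 3 weeks, 4 were called lower and 0 higher, where 14.1% of all entries were lower and 9.73% higher. Of the genes called, STRA8, STK31, SOX30 and PRDM9 passed the filter only through postnatal libraries, STRA8 and PRDM9 through 3 weeks alone. The counts are therefore not read as results about the list. STRA8, the retinoic acid target needed for meiotic entry, had 4.80 RPKM at 3 weeks and 0.0324 RPKM at E18, and STK31 had 13.3 and 0.496 RPKM. CCND2, a cyclin of the G1 phase, and RARG, a retinoic acid receptor, were the genes called lower, with 1.09 and 1.04 RPKM at 3 weeks and 5.90 and 3.32 RPKM at E18. STRA8, DMRT1, STK31 and PRDM9 were called lower at 6 months, where DMRTB1 was not.

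Some DMRT paralogs shared the DMRTB1 step. Of 6 tested paralogs, DMRT1, DMRTA1, DMRTC1A and DMRTC2 were called higher at 3 weeks than at E18, and DMRT2 lower. In that comparison 32.0% of all entries were higher and 10.5% lower. DMRTA1, DMRTC1A and DMRTC2 passed the filter only through the postnatal libraries, so this is not read as a result about the family. DMRTC2 was nearest in level, with 0.0318 RPKM at E14 and 0.361 at E18, 10.97 at 3 weeks and 12.9 at 6 months. DMRT1, a factor of Sertoli cells and spermatogonia, had 0.0198, 3.18, 7.49 and 2.29 RPKM, with its first step already at E18 (log2 difference 2.03), as for SOHLH1. DMRTA2 was called higher at 6 months than at 3 weeks, with 1.61 and 0.110 RPKM.

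Paralogs of the zinc finger members were followed too. Of all entries, 32.0% were called higher and 10.5% lower at 3 weeks against E18. At 6 months against 3 weeks these shares were 9.73% and 14.1%. With so few genes per list, the counts below are not read as results about the families. SALL1, SALL2 and SALL3 had 1 gene called lower at 3 weeks than at E18 (SALL2, with 0.374 and 4.44 RPKM) and 1 called higher at 6 months than at 3 weeks (SALL3, with 1.37 and 0.165 RPKM). Among 6 ZBTB-family genes, 3 were tested, and ZBTB32, a relative of ZBTB16, was called higher at 3 weeks than at E18, with 15.1 and 0.260 RPKM, and had 11.7 RPKM at 6 months. ZBTB20 was called lower at 6 months than at 3 weeks, with 0.495 and 2.22 RPKM. Like ZBTB16, both had their highest level at 3 weeks. Among 5 genes of the KIT ligand and related receptors, PDGFRA and PDGFRB were called lower at 3 weeks (1.05 and 1.08 RPKM, against 3.90 and 12.1 RPKM at E18), and KITL was called lower at 6 months (log2 difference -1.32).

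**Figure D4:**
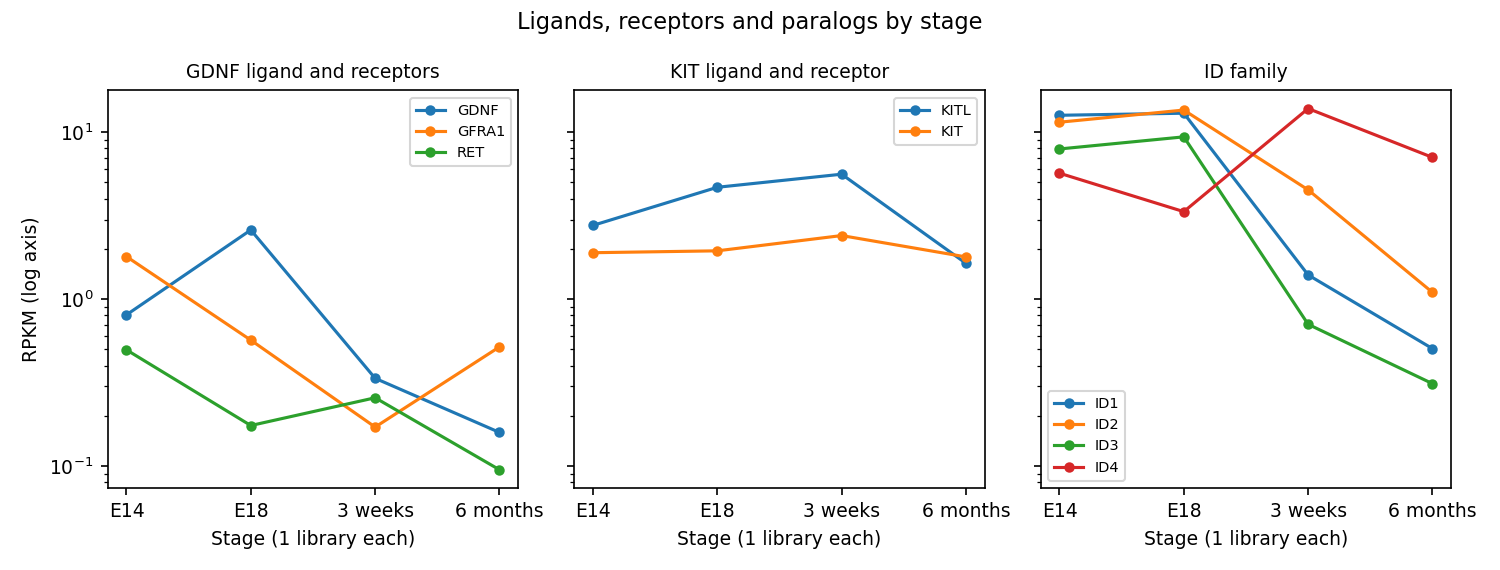
RPKM on a log axis (vertical) at each stage (horizontal, 1 library each) for GDNF with GFRA1 and RET, for KITL with KIT, and for the 4 ID genes. GDNF is highest at E18 (2.60 RPKM) where GFRA1 has 0.568 RPKM, and ID4 reaches 13.9 RPKM at 3 weeks while ID1, ID2 and ID3 stand between 0.707 and 4.52 RPKM.

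Genes with the most similar stage pattern were sought among 11732 other established protein-coding genes of at least 1 RPKM in a library, by the distance between the 4 log2(RPKM + 1) values after each gene's mean was removed. With 4 libraries many genes lie close to any pattern. For DMRTB1 the nearest were QRICH2 (0.0406, 0.115, 64.3 and 113 RPKM in stage order) and GYKL1, and 9 genes lay within a distance of 0.5. For SOHLH1 the nearest were C1RB and DPEP1, and 74 lay within that distance, and for ID4 they were LSM14B and SMPX, with 132. For KIT, whose level is nearly flat, 2218 genes lay within it, led by MAP4K3 and RUFY1. SOHLH2 was nearest to SPATS1 and ATF1, GFRA1 to SNRPN and RXRG, RET to RGS4 and JAG2, ETV5 to BEND5 and DLG3, SALL4 to MAMLD1 and DYNLT3, and ZBTB16 to GIGYF2 and SPECC1L.

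**Figure D5:**
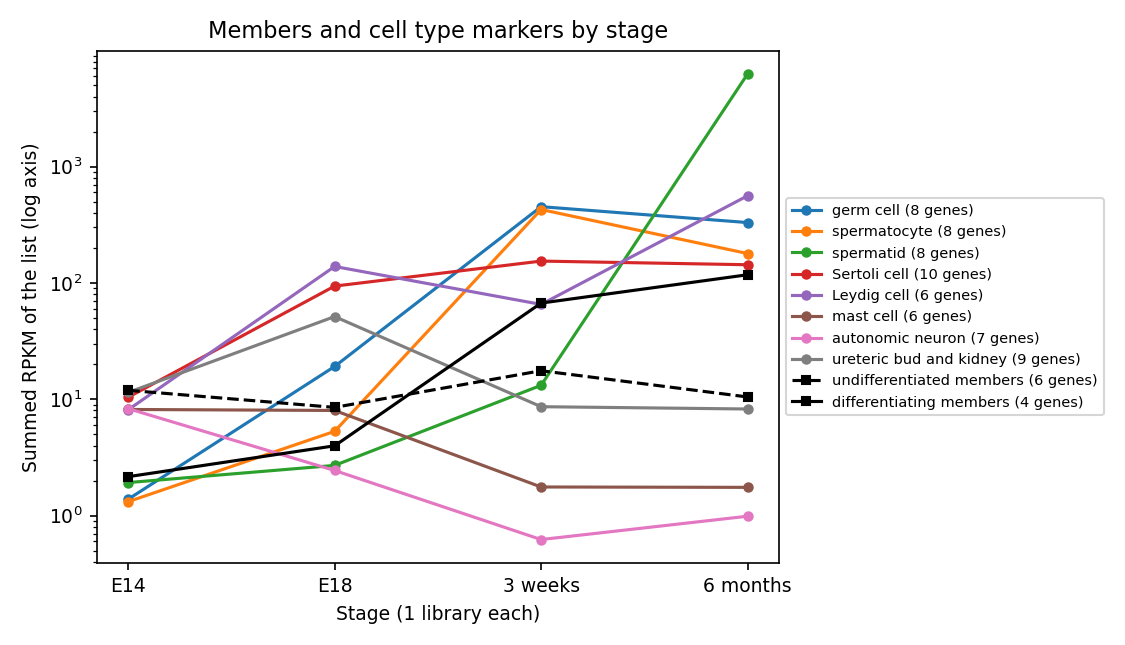
Summed RPKM on a log axis (vertical) of the undifferentiated members, the differentiating members and 8 lists of cell type markers at each stage (horizontal, 1 library each). The undifferentiated members stay between 8.51 and 17.6 RPKM, while the germ cell markers stand at 1.38 RPKM at E14, 19.1 at E18, then 452 at 3 weeks and 330.3 at 6 months.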

How the data were processed

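RNA of 4 testis libraries, 1 per stage, was measured by sequencing. Per the labels' protocols, ribosomal RNA was depleted and a directional kit was used. Some fields also name isolation of polyadenylated RNA, while others name depletion alone. The values deposited by the authors are RPKM per gene entry. TopHat2 and the build mm10 appear, with no role stated, per the submitters' processing notes. How reads were counted, on which annotation and whether by strand is not given in the sources used here.

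The read total behind each library was taken from the most frequent step of RPKM times length over single-exon genes. Reads of each member are the smallest whole numbers that give its RPKM in all 4 libraries (relative tolerance 2e-08, lengths up to 60000 bases). A common factor may be lost, which widens intervals, and 5 of 10 recovered lengths equal the union of GENCODE vM21 exons. For ID4 the recovered length was 1660 bases and the annotated union 3849. Intervals at 95% are exact for levels (Poisson) and ratios (Clopper-Pearson), and approximate for shares of summed RPKM, on the logit scale from each member's Poisson error. They cover counting error only.

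Differences are log2(RPKM + 1), later minus earlier stage. Entries of at least 1 RPKM in a library entered, and a difference of at least 1 (2-fold) was called. Other settings tried were a 4-fold limit, 4 rescalings (equal sums, median of ratios, ribosomal protein genes, protein-coding genes), a minimum of 5 RPKM, no minimum, and a pseudocount of 0.1. The members and gene lists were chosen with earlier results of these data known. Named genes were all members, up to 2 tested genes in each direction per list and comparison, GDNF and KITL, and the 2 nearest patterns per member. Further list genes were named after their values were seen. The steps were tested on simulated data (Python 3.11.15, scipy 1.17.1). The values of 1 marker gene are not reported here.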

Additional observations from a re-analysis of the deposited data

How the results depend on the processing

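No paired analysis was possible because each stage is 1 library with no replicate to match. No member's called difference changed direction under any of the alternatives run. Of 54 counts of members under alternatives, 44 stayed at or within 1.5 times the reported count. This tally overstates stability, because some of the counts could not have moved. With the added 1 and the 2-fold limit, a call needs at least 1 RPKM in the higher library, so removing the minimum could change no call. Leaving E14 out of the filter could change only lower calls at E18 against E14. With a pseudocount of 0.1, GFRA1 became the 1 member lower at E18 against E14 and at 3 weeks against E18 and the 1 member higher at 6 months against 3 weeks, where SOHLH2 became the 1 member lower. With a minimum of 5 RPKM or a 4-fold limit, 0 members were higher at E18 against E14, and at 4-fold 1 (DMRTB1) was higher at 3 weeks against E18. At 6 months against 3 weeks, DMRTB1 became the 1 member higher under the median of ratios and under ribosomal protein scaling, and ID4 the 1 member lower under protein-coding scaling. Under ribosomal protein scaling KIT joined ID4, SOHLH2 and DMRTB1 as a member higher at 3 weeks against E18 (4 in all). The cause was not tested.

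Over all entries, E18 against E14 gave 934 higher and 574 lower as reported, 3204 and 1768 with a pseudocount of 0.1, 511 and 283 at a minimum of 5 RPKM, 118 and 90 at 4-fold, 488 higher under ribosomal protein scaling and 322 lower with E14 left out of the filter. The share higher among those called was 61.9%, or 48.5% under the median of ratios. At 3 weeks against E18, 13742 higher and 4532 lower became 7687 lower with a pseudocount of 0.1, 2652 lower at 5 RPKM, 6922 and 852 at 4-fold, and 23790 and 1084 under ribosomal protein scaling (75.2% and 95.6% higher, and 63.9% under protein-coding scaling). At 6 months against 3 weeks, 4182 higher and 6062 lower became 13337 lower with a pseudocount of 0.1, 2367 higher at 5 RPKM, 1376 and 775 at 4-fold, and 7370 and 1869 under the median of ratios (40.8% and 79.8% higher, and 29.6% under protein-coding scaling). Rescaling moved the median log2 difference of all entries by up to 0.69 (ribosomal protein genes, 3 weeks against E18) and 0.38 (median of ratios, 6 months against 3 weeks).

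The undifferentiated share without KIT was 97.9% at E14 and 80.8% at E18. Without ID4 and ETV5 it was 55.0% at E14 and 34.8% at E18, 3.09% at 3 weeks and 0.862% at 6 months. Without DMRTB1 it was 72.7% at 3 weeks and 72.6% at 6 months.

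Depth limits the lowest members most: SOHLH1 and SOHLH2 had 2 and 1 reads at E14, at or under the 3 reads that a count of 0 allows, so their E14 levels were not measured beyond that limit.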
